A study of Mus musculus with 20 samples.

Results

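The data described here are the transcriptomes of CD4+Foxp3- T cells sorted from pooled spleen and peripheral lymph nodes (pLNs) of WT and DKO mice. They are 4 of the 20 libraries of the series, 2 biological replicates per genotype. Group membership was taken from the labels. All mice were C57BL/6 animals aged 14 weeks that carried Foxp3Cre, a YFP-Cre fusion placed in the 3′ part of the Foxp3 locus. WT mice had intact Tet genes, whereas DKO mice were Tet2/3 fl/fl Foxp3Cre. The cells were sorted as CD4+YFP-, a gate that selects cells without detected signal of the YFP-Cre linked to Foxp3 when they were collected. The gate can also hold cells that expressed Foxp3 at an earlier time and carry the deletion, and the gene-level counts used here do not tell such cells apart. The DKO mice were littermates, and the study marks one of them for a more severe splenomegaly, but the labels do not say which replicate it is. The study reports that T cells of that mouse resembled WT cells less than those of its littermate did. With 2 mice per genotype, each comparison rests on few animals. The spread behind each p-value was estimated over all 4 groups of spleen and pLN libraries, including sorted Foxp3+ cells. The fit treats these libraries as independent, so p-values do not measure the spread between these animals alone.

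TET proteins oxidise 5-methylcytosine in DNA, a step towards its removal, and TET2 and TET3 are the main members of the family in T cells. Regulatory T (Treg) cells, which are marked by the transcription factor Foxp3, restrain the activation of the other CD4+ T cells. In DKO mice the floxed genes are deleted in Foxp3+ cells, and the comparison asks which genes differ in the Foxp3- cells of the same animals.

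The 4 libraries held from 13651618 to 14258836 counted reads, so that 3 counts, the limit below which a gene was treated as not detected, corresponded to 0.188 to 0.241 CPM. CPM are counts scaled to a common library size of 1000000 after TMM normalization. They can be compared between libraries for 1 gene and are not corrected for gene length. Of 10 T cell markers, 0 were called higher and 0 lower. The genotypes did not overlap for 3 higher and 3 lower in DKO, beside 20.8% and 21.1% over all genes. Cd3e, a subunit of the T cell receptor complex, was at 561 and 523 CPM in the WT replicates against 616 and 585 CPM in the DKO replicates, and Cd4 was at 1216 and 1139 CPM in the WT replicates against 1405 and 1236 CPM in the DKO replicates. Cd8a lay at 0.228 and 0.161 CPM in the WT replicates against 0.377 and 0.222 CPM in the DKO replicates, close to the detection limit, whereas Cd8b1, the other CD8 chain gene, was at 17.5 and 14.6 CPM in the WT replicates against 4.71 and 11 CPM in the DKO replicates, lower in both DKO libraries (adjusted p = 0.186). Foxp3 was at 0.684 and 0.563 CPM in the WT replicates against 0.251 and 0.741 CPM in the DKO replicates, close to the limit in both genotypes. The level of Tet2 was 2.05 and 1.77 CPM in the WT replicates against 2.76 and 1.78 CPM in the DKO replicates, and that of Tet3 was 50.9 and 58.1 CPM in the WT replicates against 37.7 and 45.9 CPM in the DKO replicates (adjusted p = 0.939 and 0.487). These counts cover whole genes, and reads over the floxed exons were not analysed here. The study reports both mRNAs greatly reduced in DKO CD4+YFP- cells, by quantitative PCR and by RNA-seq reads over the deleted exons. It proposes that a substantial part of the activated CD4+YFP- cells had been Treg cells before. In another passage it describes the deletion as specific to YFP+ cells.

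DKO replicate 1 stood apart from the other 3 libraries. Of 8378 genes that reached an average of 10 CPM in either genotype, 485 were at least 2-fold above and 414 at least 2-fold below the WT mean in DKO replicate 1, against 83 and 10 in DKO replicate 2 (after adding 0.5 CPM). Of the 2-fold higher genes, 78 of the 83 genes of replicate 2 were also 2-fold higher in replicate 1. Only 5 genes were at least 2-fold lower in both, and 3 were 2-fold from WT in opposite directions. Thy1, a pan-T cell surface protein, showed the same split, with 1069.6 and 1033 CPM in the WT replicates against 407 and 1185 CPM in the DKO replicates. For this reason each gene is given in all 4 libraries, and the counts of genes that hold and of genes called are also given without DKO replicate 1. Other counts include it.

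**Figure D1:**
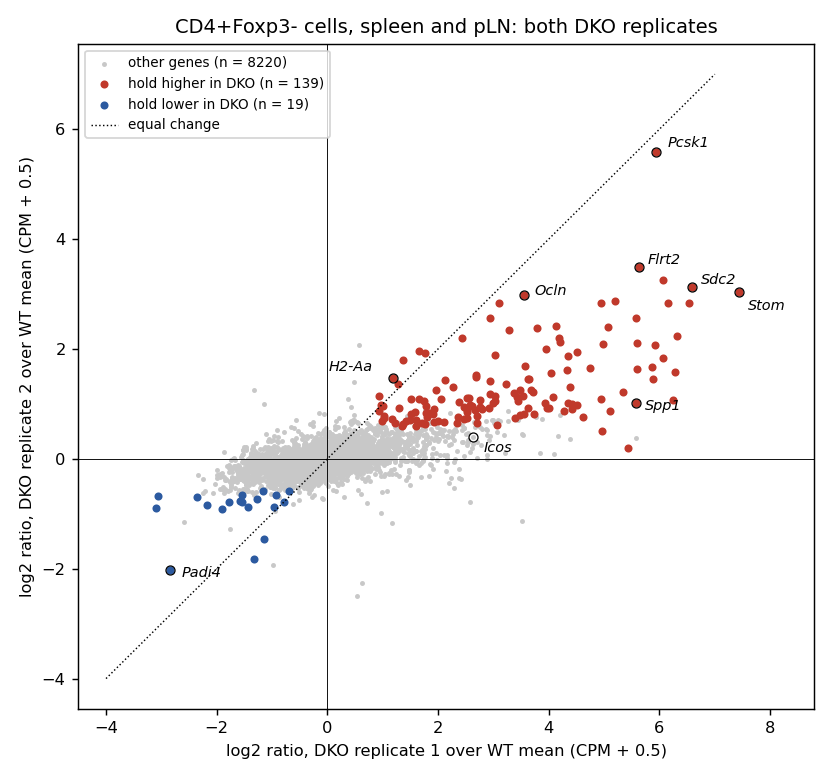
Each point is 1 of 8378 genes that average 10 CPM or more in WT or DKO cells, placed by its log2 ratio to the WT mean in DKO replicate 1 (horizontal) and DKO replicate 2 (vertical). Red and blue genes hold in both replicates, and most red genes lie under the dotted line of equal change, whereas Pcsk1 and H2-Aa lie on or near it.

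Most genes that held in both replicates were higher in DKO cells. A gene was said to hold when the lowest library of one genotype was at least 1.5 times the highest library of the other and the higher genotype had a mean of at least 5 CPM. Of 16357 genes tested, 241 held higher in DKO (1.47%) and 30 held lower (0.183%). Among the 241 higher genes, the median fold over the WT mean was 9.31 in DKO replicate 1 and 2.4 in DKO replicate 2, and replicate 1 was the higher of the pair for 232 of them. For 70 genes the DKO replicates lay within 2-fold of each other. Against WT without DKO replicate 1, 172 genes held higher and 47 lower. Without any minimum fold or level, the genotypes did not overlap for 3399 genes that were higher (20.8%) and 3450 that were lower in DKO (21.1%), which is the background for the counts of non-overlapping genes given for the gene lists.

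edgeR's quasi-likelihood test, with thresholds of 0.05 for the adjusted p and 1.5 for the fold change, called 126 genes higher in DKO (0.77% of genes tested) and 8 lower (0.0489%). Of the genes called, 109 higher and 3 lower genes also held in both replicates, and the genotypes did not overlap for any of the 134. Another 132 genes held higher but were not called. The number called depended on the fit. It was 376 with DESeq2's Wald test on the same libraries and 1 with edgeR on the 2 groups alone, and it was 83 without DKO replicate 1, 77 higher and 6 lower. A fit without DKO replicate 1 leaves 1 DKO library of CD4+Foxp3- cells, which is assumed to vary like the other groups, so that a call kept or lost there compares that single library with WT and is given as a description. Leaving out WT replicate 1 or WT replicate 2 left 2 calls and 1 call. Pcsk1 was the 1 gene called in the main test and in all 12 alternatives, and 19 genes were called in at least 7 of the 12, among them H2-Aa, H2-Ab1, H2-Eb1, Ocln and Cst7. Below, a fold change in parentheses is the log2 fold change of DKO over WT ± its SE, and every adjusted p is from this edgeR test with the Benjamini-Hochberg method over all genes tested.

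Pcsk1, which encodes the endopeptidase that cleaves prohormones in the secretory granules of neuroendocrine cells, separated the genotypes by the widest margin among genes that averaged 10 CPM or more. Pcsk1 was at 4.03 and 2.57 CPM in the WT replicates against 233 and 181 CPM in the DKO replicates. Both DKO libraries lay far above both WT libraries, and the lower DKO value was 45 times the higher WT value. The fold change was 5.97 ± 0.37, adjusted p = 2.87e-05, and in DKO replicate 2 alone the change was of nearly the same size (log2 fold change 5.77, adjusted p = 2.77e-06, with the spread taken from the other groups). The gene lies at chr13:75227274-75269946, plus strand (GENCODE M1 on NCBIM37, which is mm9). Its RefSeq promoter (GRCm38.p6, chr13:75089607-75089906, plus strand, 250 bases before to 50 bases after the start) is shown because this gene led the comparison, with matches to TGACG, the short form of the cAMP response element, read on either strand, in capitals.

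Pcsk1: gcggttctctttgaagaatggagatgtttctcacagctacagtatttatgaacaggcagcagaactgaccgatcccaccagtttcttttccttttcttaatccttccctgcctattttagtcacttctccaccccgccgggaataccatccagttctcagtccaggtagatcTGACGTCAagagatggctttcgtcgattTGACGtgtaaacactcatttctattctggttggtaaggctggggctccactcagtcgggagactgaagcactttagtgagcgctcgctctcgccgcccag

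The first capitals, the full element core TGACGTCA, read the same on both strands and begin 78 bases before the start, and the second, the short form TGACG alone, begins 50 bases before it. TGACGTCA is found in 1.88% and TGACG in 21.0% of the 27025 mouse promoters of the same length. These matches describe the sequence, and binding there was not measured.

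Scg2, Ocln and Flrt2 were also higher in both DKO libraries. Scg2, whose product secretogranin II is a secretory granule protein, was at 0.380 and 0.804 CPM in the WT replicates against 72.3 and 9.85 CPM in the DKO replicates (6.11 ± 0.85, adjusted p = 0.0112). Ocln encodes occludin of tight junctions and was at 0.684 and 0.804 CPM in the WT replicates against 14 and 9.34 CPM in the DKO replicates (3.96 ± 0.50, adjusted p = 0.0106). Flrt2, a leucine-rich repeat transmembrane protein of cell adhesion, was at 3.19 and 1.05 CPM in the WT replicates against 129 and 28.7 CPM in the DKO replicates (5.21 ± 0.68, adjusted p = 0.0106). The lower DKO library exceeded the higher WT library 12.3-fold for Scg2, 11.6-fold for Ocln and 9.01-fold for Flrt2, and the gap between the DKO libraries was smallest for Ocln.

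Stom encodes stomatin, a membrane protein first studied in red blood cells, and showed a wider gap between DKO libraries, with 4.33 and 3.7 CPM in the WT replicates against 781 and 36.8 CPM in the DKO replicates (6.67 ± 1.12, adjusted p = 0.0241). Dsp, which encodes desmoplakin of desmosomes, was at 0.532 and 0.322 CPM in the WT replicates against 55.6 and 3.41 CPM in the DKO replicates (6.08 ± 1.17, adjusted p = 0.0401). Igj, the older symbol of the gene for the joining chain of polymeric immunoglobulin, was at 2.81 and 2.73 CPM in the WT replicates against 119 and 23.6 CPM in the DKO replicates (4.68 ± 0.85, adjusted p = 0.0302). Igj is also a plasma cell gene. Of 6 plasma cell markers tested, 5 including Igj were higher in both DKO than in both WT libraries, beside 20.8% over all genes, and Igj alone was called. Their summed level was 171 and 153 CPM in WT libraries and 721 and 210.2 CPM in DKO, and the part of such cells in the Igj values was not tested. In the fit with DKO replicate 2 as the lone DKO library, Stom kept its call (log2 fold change 3.19, adjusted p = 0.00150), but Dsp and Igj lost theirs (adjusted p = 0.164 and 0.0619).

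A further set of genes was at or below the detection limit in both WT libraries, so a fold is given as the ratio of reads per library size with its 95% counting interval (exact binomial, which covers counting error only), or as a lower bound against 3 counts where WT had 0. Sdc2, which encodes the heparan sulfate proteoglycan syndecan-2, was at 0.228 and 0.0804 CPM in the WT replicates against 62.5 and 5.19 CPM in the DKO replicates, a ratio of 232 with an interval of 90.3 to 853 (adjusted p = 0.0217). Sntg2, a syntrophin adaptor, was at 0 and 0.0804 CPM in the WT replicates against 49.3 and 3.33 CPM in the DKO replicates, a ratio of 722 with an interval of 129 to 28562 (adjusted p = 0.0173). Vax2, a homeobox transcription factor of the developing eye, was at 0.228 and 0.0804 CPM in the WT replicates against 21.5 and 2.96 CPM in the DKO replicates, a ratio of 83.1 with an interval of 32.2 to 307 (adjusted p = 0.0173). In Sdc2, Sntg2 and Vax2 DKO replicate 2 was also above the limit, but DKO replicate 1 carried most of the mean. The unnamed clone 9930032O22Rik was at 0.0760 and 0.241 CPM in the WT replicates against 20.3 and 2.3 CPM in the DKO replicates, a ratio of 77.2 with an interval of 29.9 to 285 (adjusted p = 0.0237), and its call was lost without DKO replicate 1 (adjusted p = 0.0938).

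Collagen V chain genes, which encode a fibrillar collagen of connective tissue, were also below the limit in WT. Col5a3 was at 0 and 0 CPM in the WT replicates against 23.4 and 2.45 CPM in the DKO replicates, which is 53.5-fold or more for the DKO mean and 10.1-fold or more for DKO replicate 2 (adjusted p = 0.0173). Col5a2 was at 0.0760 and 0 CPM in the WT replicates against 41.2 and 1.11 CPM in the DKO replicates, a ratio of 584 with an interval of 104 to 23097 (adjusted p = 0.0499). Ntng1, which encodes the axonal membrane protein netrin-G1, was at 0 and 0 CPM in the WT replicates against 39.2 and 1.85 CPM in the DKO replicates, which is 85.2-fold or more for the DKO mean and 7.68-fold or more for DKO replicate 2 (adjusted p = 0.0411), and Hspb1, a small heat shock protein, was at 0.0760 and 0 CPM in the WT replicates against 31.1 and 0.963 CPM in the DKO replicates, a ratio of 443 with an interval of 79.1 to 17529 (adjusted p = 0.0426). DKO replicate 1 carried most of the mean in these genes too. The calls of Col5a2, Ntng1 and Hspb1 were lost without DKO replicate 1 (adjusted p = 0.298, 0.0994 and 0.114), whereas those of Sdc2, Sntg2, Vax2 and Col5a3 were kept with DKO replicate 2 as the lone DKO library (adjusted p = 9.06e-05, 0.00321, 0.0261 and 0.00321). Of the 126 genes called higher, 30 were at or below the limit in WT.

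Penk, Mal, Cadm1, Epha3 and Pls3 are named here after their values were seen, because they were called in 7 of the 12 alternatives. Penk, which encodes the precursor of the enkephalins, was at 27.2 and 9.08 CPM in the WT replicates against 142 and 109.8 CPM in the DKO replicates (2.79 ± 0.38, adjusted p = 0.0109). Pls3, which encodes the actin-bundling protein plastin-3, was at 1.67 and 1.37 CPM in the WT replicates against 19.2 and 9.78 CPM in the DKO replicates (3.25 ± 0.38, adjusted p = 0.0106), and Epha3, an ephrin receptor, at 1.37 and 0.563 CPM in the WT replicates against 12.1 and 9.93 CPM in the DKO replicates (3.49 ± 0.48, adjusted p = 0.0109). All DKO values of these genes were above all WT values. Cadm1, a cell adhesion molecule of the immunoglobulin superfamily, and Mal, a lipid raft protein of T cells and myelin, were near the limit in WT, at 0.228 and 0.0804 against 7.91 and 5.48 CPM and 0.228 and 0.0804 against 3.45 and 9.41 CPM, with ratios of 43.5 with an interval of 16.7 to 161 and 39.6 with an interval of 15.2 to 147 (adjusted p = 0.0106 and 0.0173).

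**Figure D2:**
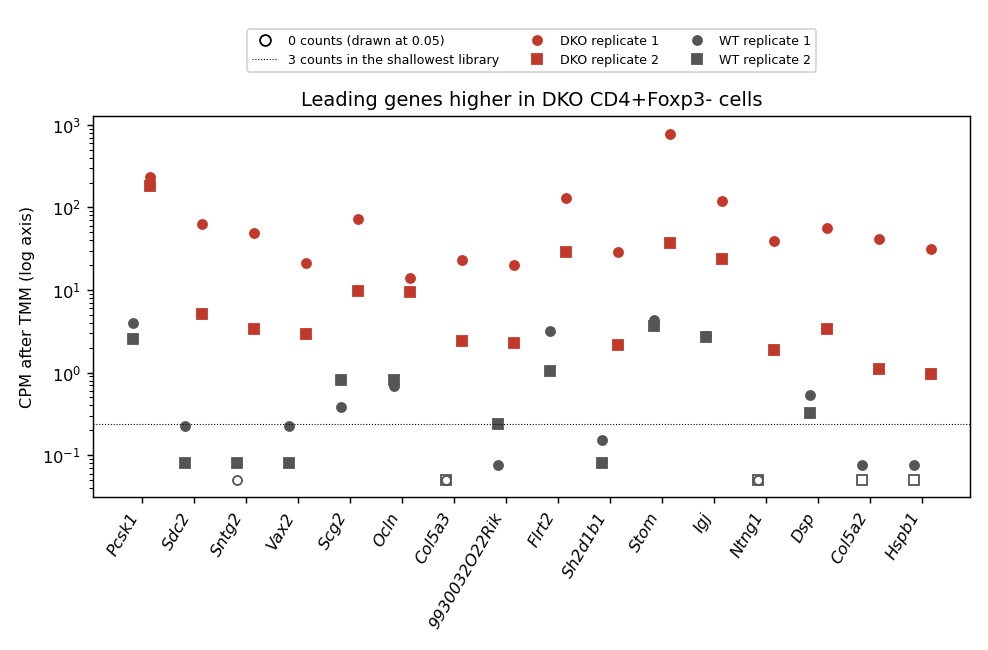
CPM after TMM on a log axis in each WT library (grey) and DKO library (red) for the 16 leading genes that were higher in DKO, ordered by the ratio of the lower DKO library to the higher WT library. Open symbols are libraries with 0 counts, and DKO replicate 1 (circles) is above DKO replicate 2 (squares) for all 16 genes.

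A group of 4 genes of the major histocompatibility complex (MHC) class II, H2-Aa, H2-Ab1, H2-Eb1 and Cd74, was higher in both DKO libraries by similar amounts. They were 4 of the 9 genes that held higher with the larger value in DKO replicate 2. MHC class II molecules present peptides to CD4+ T cells, and mouse T cells are usually described as expressing little of them. H2-Aa, which encodes the alpha chain of I-A, was at 15.3 and 13.1 CPM in the WT replicates against 33.1 and 40.3 CPM in the DKO replicates. H2-Ab1, the gene of its beta chain, was at 9.65 and 5.87 CPM in the WT replicates against 27.4 and 31 CPM in the DKO replicates. H2-Eb1, the beta chain gene of I-E, was at 8.43 and 7.32 CPM in the WT replicates against 21 and 28.7 CPM in the DKO replicates. The DKO and WT libraries did not overlap for any of these.

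The log2 fold change was 1.37 ± 0.21, adjusted p = 0.0166 for H2-Aa, 1.91 ± 0.27, adjusted p = 0.0117 for H2-Ab1, and 1.66 ± 0.26, adjusted p = 0.0173 for H2-Eb1. Cd74, the invariant chain that guides class II molecules through the cell, was at 37.8 and 29.6 CPM in the WT replicates against 65 and 74.6 CPM in the DKO replicates (1.05 ± 0.22, adjusted p = 0.0480). With DKO replicate 2 as the lone DKO library, all 4 genes were called too (adjusted p = 0.00316 for H2-Aa, 0.00307 for H2-Ab1, 0.00227 for H2-Eb1 and 0.0366 for Cd74). H2-Ab1 and H2-Aa overlap at their ends on opposite strands (chr17:34400154-34406363, plus strand, and chr17:34406276-34424772, minus strand, NCBIM37), and the counting used strand.

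The other class II genes, which act in peptide loading and regulation, were not called. Of 10 listed class II genes, 4 were called higher, 0 lower, and 6 were not called, beside 0.77% called higher and 0.0489% lower over all genes. The genotypes did not overlap for 7 of the 10 higher and 2 lower in DKO, beside 20.8% and 21.1% over all genes. H2-Ob, a chain of H2-O, which inhibits peptide loading, was at 44.7 and 52.3 CPM in the WT replicates against 12.6 and 25.5 CPM in the DKO replicates and held lower without being called (adjusted p = 0.0573). H2-Oa, its partner, was at 18.4 and 16.3 CPM in the WT replicates against 6.47 and 17.3 CPM in the DKO replicates (adjusted p = 0.546). H2-DMa, a chain of the loading catalyst H2-M, was at 45.3 and 49.6 CPM in the WT replicates against 18.4 and 34.4 CPM in the DKO replicates (adjusted p = 0.184), and its partner genes H2-DMb1 and H2-DMb2 were at 1.14 and 1.05 against 3.45 and 2.0 CPM and 1.37 and 1.37 against 2.64 and 2.52 CPM. Ciita, the master regulator of class II transcription, was low throughout at 0.836 and 0.804 CPM in the WT replicates against 0.942 and 1.48 CPM in the DKO replicates (adjusted p = 0.802).

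Class II promoters carry a conserved Y box, an inverted CCAAT element. The RefSeq promoters of H2-Aa (GRCm38.p6, chr17:34287774-34288073, minus strand) and H2-Eb1 (chr17:34305617-34305916, plus strand) are shown because these genes moved together, with the Y box core CTGATTGG, searched on both strands, in capitals.

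H2-Aa: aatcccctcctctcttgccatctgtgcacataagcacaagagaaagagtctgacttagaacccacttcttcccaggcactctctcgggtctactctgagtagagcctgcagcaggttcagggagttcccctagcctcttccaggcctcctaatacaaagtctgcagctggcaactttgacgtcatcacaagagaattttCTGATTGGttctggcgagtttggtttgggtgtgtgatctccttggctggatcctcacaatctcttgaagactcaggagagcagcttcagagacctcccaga
H2-Eb1: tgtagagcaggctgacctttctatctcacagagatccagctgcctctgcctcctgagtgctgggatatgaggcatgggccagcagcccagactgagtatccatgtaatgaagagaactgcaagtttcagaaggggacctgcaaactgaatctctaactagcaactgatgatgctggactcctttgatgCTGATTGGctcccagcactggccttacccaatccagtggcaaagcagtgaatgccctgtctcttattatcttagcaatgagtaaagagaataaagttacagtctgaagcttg

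The core begins 51 bases before the start in H2-Aa and 62 bases before it in H2-Eb1. Of 7 listed class II genes with a promoter in the RefSeq table, 3 hold the core (H2-Aa, H2-Eb1 and H2-Oa), beside 4.31% of all promoters. H2-Oa was not called. H2-Ab1 has no entry in the table.

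Markers of B cells and myeloid cells, which express class II at high levels, were mostly low and had higher values in DKO. Of 9 B cell markers, 7 were higher in both DKO than in both WT libraries, beside 20.8% over all genes, and none was called. Their summed level was 4.41 and 4.42 CPM in WT libraries and 38.8 and 7.78 CPM in DKO. In DKO replicate 1, the kinase gene Blk made up 27.2 CPM of this sum. The defining B cell genes Cd79a and Ms4a1 were at 0.760 and 1.13 against 1.57 and 1.41 CPM and 0.0760 and 0 against 0.628 and 0.963 CPM.

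Of 15 myeloid markers tested, 12 were higher in both DKO than in both WT libraries, beside 20.8% over all genes, and 1, Cybb, was called. Their summed level was 439.6 and 450.0 CPM in WT libraries and 747 and 529 CPM in DKO, of which Ctss, the gene of cathepsin S, made up 356 and 384 in WT and 207 and 352 in DKO. Cybb made up 71.6 and 52.2 CPM of this sum in WT and 475 and 140 CPM in DKO. In WT Treg libraries Cybb was at 128 and 102 CPM. Tyrobp, a signalling adaptor of myeloid and NK cells, held higher at 0.988 and 2.17 CPM in the WT replicates against 6.66 and 6.52 CPM in the DKO replicates (adjusted p = 0.0900). Itgax, the integrin chain of dendritic cells, was at 1.14 and 1.05 CPM in the WT replicates against 3.39 and 6.37 CPM in the DKO replicates (adjusted p = 0.108), whereas Lyz2 and Csf1r were at 0.228 and 0.563 against 2.7 and 1.7 CPM and 0.0760 and 0 against 0.879 and 0.667 CPM. None of 9 neutrophil, 2 erythroid, 8 stromal and endothelial, 2 CD8 and 3 gamma-delta or iNKT markers tested was called. The part of such cells in the class II values was not tested, and in sorted bulk samples more cells of a type and more RNA per cell cannot be told apart.

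**Figure D3:**
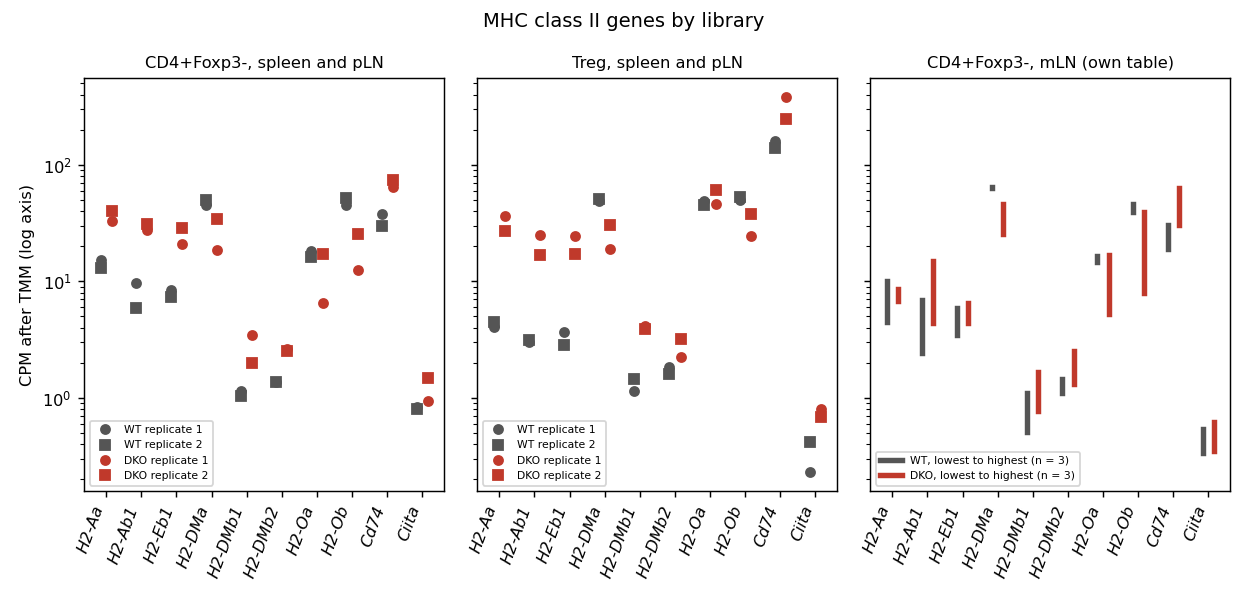
CPM after TMM on a log axis for 10 MHC class II genes in each library of CD4+Foxp3- cells (left) and Treg cells (middle) from spleen and pLNs, and as the range of 3 replicates in mLN CD4+Foxp3- cells (right, a separately normalized table). In the left panel both DKO libraries lie above both WT libraries for 7 of the 10 genes, among them H2-Aa, H2-Ab1, H2-Eb1 and Cd74, and below them for 2. The mLN ranges of the 4 genes named overlap.

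Among secreted factors, Csf1, the growth factor of macrophages, was at 11.2 and 7.24 CPM in the WT replicates against 201 and 23.4 CPM in the DKO replicates (3.61 ± 0.73, adjusted p = 0.0465). Spp1, which encodes the cytokine and matrix protein osteopontin, was at 20.4 and 18.7 CPM in the WT replicates against 957 and 40.1 CPM in the DKO replicates (4.67 ± 0.96, adjusted p = 0.0490). Both genes were higher in both DKO libraries, but DKO replicate 1 exceeded DKO replicate 2 many times over. Of the 30 listed cytokine genes tested, these 2 were called and 28 were not. Lif, a cytokine of the interleukin-6 family outside this list, is named after its values were seen and was called too, at 2.35 and 2.41 CPM in the WT replicates against 138 and 8.45 CPM in the DKO replicates (4.94 ± 0.95, adjusted p = 0.0400). With DKO replicate 2 as the lone DKO library, Spp1 kept its call (log2 fold change 1.03, adjusted p = 0.0294) and Csf1, with a larger fold, did not (log2 fold change 1.34, adjusted p = 0.152). Tgfb3 held higher at 4.94 and 4.26 CPM in the WT replicates against 10.8 and 8.22 CPM in the DKO replicates without being called (adjusted p = 0.494). Areg, which encodes the growth factor amphiregulin, was called from low values, 0.0760 and 0 CPM in the WT replicates against 6.22 and 1.19 CPM in the DKO replicates (adjusted p = 0.0299), and its call was lost without DKO replicate 1 (adjusted p = 0.0932).

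Few genes of cytotoxic and NK cells were called. Of 14 cytotoxic genes, 7 had a log2 fold change above 0 and 7 below. The genotypes did not overlap for 3 higher and 2 lower, beside 20.8% and 21.1% over all genes. Cst7, which encodes cystatin F, an inhibitor of the proteases that activate granzymes, was at 61 and 47.5 CPM in the WT replicates against 213 and 130.3 CPM in the DKO replicates (1.66 ± 0.23, adjusted p = 0.0109), and it was the only one of 14 cytotoxic genes called. Sh2d1b1, which encodes the adaptor EAT-2 of SLAM family receptors in NK cells, was at 0.152 and 0.0804 CPM in the WT replicates against 29.2 and 2.15 CPM in the DKO replicates, a ratio of 143 with an interval of 48.7 to 697 (adjusted p = 0.0244), the only call among 17 NK receptor and adaptor genes. DKO replicate 1 carried most of this ratio, and DKO replicate 2 was 18.5-fold above the WT mean. Ncr1, the NK receptor gene of NKp46, was at 0.456 and 0.482 CPM in the WT replicates against 2.07 and 5.85 CPM in the DKO replicates (3.05 ± 0.60, adjusted p = 0.0438), with the higher value in DKO replicate 2, the only call among 6 NK markers. Klrb1a held higher at 2.96 and 1.77 CPM in the WT replicates against 22.2 and 5.26 CPM in the DKO replicates without being called (adjusted p = 0.0825), and Klrb1c, which encodes NK1.1, was at 95.2 and 57.5 CPM in the WT replicates against 209 and 96.8 CPM in the DKO replicates (adjusted p = 0.167). The summed level of the 6 NK markers was 234 and 159.7 CPM in WT libraries and 283 and 279.7 CPM in DKO.

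Of 26 genes of activation and memory, 1 was called, Cd38, which encodes an NAD-consuming surface enzyme. Cd38 was at 29.6 and 17.8 CPM in the WT replicates against 82.5 and 46.5 CPM in the DKO replicates (1.44 ± 0.28, adjusted p = 0.0423), and its call was lost without DKO replicate 1 (adjusted p = 0.152). Tnfrsf4, the gene of the costimulatory receptor OX40, held higher at 67.9 and 61.8 CPM in the WT replicates against 428 and 102 CPM in the DKO replicates (adjusted p = 0.0659). The genotypes did not overlap for 13 of the 26 genes higher in DKO and 2 lower, beside 20.8% and 21.1% over all genes. Cybb, which encodes the catalytic subunit of the phagocyte NADPH oxidase and is on the myeloid list, was at 71.6 and 52.2 CPM in the WT replicates against 475 and 140.3 CPM in the DKO replicates (2.31 ± 0.42, adjusted p = 0.0300). Fam129b, one of 12 genes that the study names for these cells, was at 2.05 and 1.77 CPM in the WT replicates against 8.73 and 6.3 CPM in the DKO replicates (1.97 ± 0.35, adjusted p = 0.0295); the other 11 were not called, and the list was drawn up on these libraries, so that it is not independent evidence.

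Follicular helper T (Tfh) cell genes were higher in DKO replicate 1 and near the WT level in DKO replicate 2. For such genes the study reports levels in Treg and CD4+Foxp3- cells that followed the severity of disease in the DKO littermates. Icos, a costimulatory receptor, was at 212 and 188 CPM in the WT replicates against 1236 and 262 CPM in the DKO replicates (adjusted p = 0.0948). Il21, the cytokine that helps B cells in germinal centres, was at 44.6 and 40.2 CPM in the WT replicates against 234 and 52.4 CPM in the DKO replicates (adjusted p = 0.181), and Pdcd1, the gene of PD-1, was at 172 and 120.2 CPM in the WT replicates against 404 and 124 CPM in the DKO replicates (adjusted p = 0.415). Bcl6, the defining transcription factor, was at 42.5 and 35.5 CPM in the WT replicates against 126 and 30.7 CPM in the DKO replicates (adjusted p = 0.387), and Cxcr5, the follicle-homing receptor, at 217 and 151 CPM in the WT replicates against 301 and 105 CPM in the DKO replicates (adjusted p = 0.952). DKO replicate 2 lay below at least 1 WT library for Pdcd1, Bcl6 and Cxcr5. None of 18 Tfh genes was called, and 6 did not overlap higher and 2 lower, beside 20.8% and 21.1% over all genes. The median log2 ratio to WT was 1.46 in DKO replicate 1 and -0.02 in DKO replicate 2. Cd200, a surface glycoprotein on this list, did not overlap at 85.6 and 61 CPM in the WT replicates against 271 and 117 CPM in the DKO replicates (adjusted p = 0.0744).

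Th17 genes had higher values in DKO replicate 1 and smaller differences in DKO replicate 2, with a median log2 ratio to WT of 1.0 in DKO replicate 1 and 0.21 in DKO replicate 2. Il23r, the receptor gene for interleukin-23, was at 0.836 and 0.161 CPM in the WT replicates against 12.8 and 1.11 CPM in the DKO replicates (adjusted p = 0.0969). Il1r1, the interleukin-1 receptor, held higher at 1.29 and 1.85 CPM in the WT replicates against 83.8 and 4.3 CPM in the DKO replicates (adjusted p = 0.0825). Il17a had 0 counts in both WT libraries and was at 6.66 and 0.148 CPM in DKO (adjusted p = 0.118). None of 12 Th17 genes was called, and 6 did not overlap higher and 1 lower, beside 20.8% and 21.1% over all genes.

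Inhibitory receptor genes followed DKO replicate 1 as well. Ctla4 was at 34.4 and 40.2 CPM in the WT replicates against 344 and 50.4 CPM in the DKO replicates (adjusted p = 0.0854) and Lag3 at 124 and 111 CPM in the WT replicates against 896 and 149 CPM in the DKO replicates (adjusted p = 0.0957). DKO replicate 2 was slightly above both WT libraries for each of them. None of 13 such genes was called, and the medians were 1.47 in DKO replicate 1 and 0.16 in DKO replicate 2.

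Genes of naive and resting T cells were lower, again with a larger shift in DKO replicate 1. Lef1, a transcription factor of naive cells, was at 296 and 312 CPM in the WT replicates against 90.2 and 219 CPM in the DKO replicates (adjusted p = 0.155), and Il7r, the interleukin-7 receptor chain, at 547 and 585 CPM in the WT replicates against 142 and 443 CPM in the DKO replicates (adjusted p = 0.272). Both DKO libraries were below both WT libraries for 14 of 18 genes of this list, beside 21.1% over all genes, but none was called. The median log2 ratio to WT was -1.24 in DKO replicate 1 and -0.20 in DKO replicate 2.

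Th1 genes had lower values mainly in DKO replicate 1. Tbx21, which encodes T-bet, was at 56.2 and 53.6 CPM in the WT replicates against 17.8 and 49.4 CPM in the DKO replicates (adjusted p = 0.414), and Ifng at 14.5 and 12.4 CPM in the WT replicates against 4.52 and 9.71 CPM in the DKO replicates (adjusted p = 0.319). Cxcr3 was at 323 and 261 CPM in the WT replicates against 105 and 222 CPM in the DKO replicates (adjusted p = 0.199). None of 17 Th1 genes was called, and 4 did not overlap lower and 3 higher, beside 21.1% and 20.8% over all genes. The medians were -1.18 in DKO replicate 1 and 0.01 in DKO replicate 2. Interferon-stimulated genes gave medians of -0.85 in DKO replicate 1 and -0.11 in DKO replicate 2, with 0 of 25 called. Of these 25 genes, 13 did not overlap lower and 2 higher, beside 21.1% and 20.8% over all genes.

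Cell cycle genes had higher values in both DKO libraries, with the larger difference in DKO replicate 1. Of 22 genes of the G2/M phase, 20 were higher in both DKO than in both WT libraries, and of 22 S phase genes 19 were, beside 20.8% over all genes. Aurkb and Bub1, kinases of mitosis, held higher at 3.95 and 4.1 against 14.3 and 6.59 CPM and 2.35 and 2.33 against 10.2 and 4.37 CPM (adjusted p = 0.0865 and 0.0877). Birc5, Kif20a and Ube2c, which also act in mitosis, held higher at 7.22 and 6.75 against 18.5 and 10.9 CPM, 4.1 and 4.26 against 13.6 and 6.59 CPM and 4.79 and 4.74 against 12 and 7.63 CPM. None of these genes was called, at a median log2 fold change of 1.16 for G2/M and 0.74 for S phase. The median log2 ratios to WT were 1.47 in DKO replicate 1 and 0.45 in DKO replicate 2 for G2/M and 1.09 in DKO replicate 1 and 0.16 in DKO replicate 2 for S phase. Of 15 genes induced by T cell receptor signals, Junb was the only one that held, at 270.4 and 293 CPM in the WT replicates against 574 and 484 CPM in the DKO replicates (adjusted p = 0.0652).

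The remaining lists gave few calls. Of 10 Th2 genes, Areg was called. None was called among 17 chemokine receptors, 8 receptors that use or pair with the common gamma chain, 17 glycolysis genes, 20 DNA damage genes or 8 genes of the TET and DNMT families. Ccr4, a chemokine receptor of skin-homing and Th2 cells, came closest, at 76 and 65.6 CPM in the WT replicates against 134 and 109 CPM in the DKO replicates (adjusted p = 0.0651). In the DNA damage list Brca1 and Hipk2 held higher, at 2.13 and 1.53 against 7.85 and 3.85 CPM and 6.0 and 4.58 against 12.6 and 9.04 CPM. Of 20 Treg signature genes, 1 was called lower, Lrrc32, which anchors latent TGF-beta to the Treg surface, from values near the detection limit (0.304 and 0.563 against 0 and 0 CPM, adjusted p = 0.0295).

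**Figure D4:**
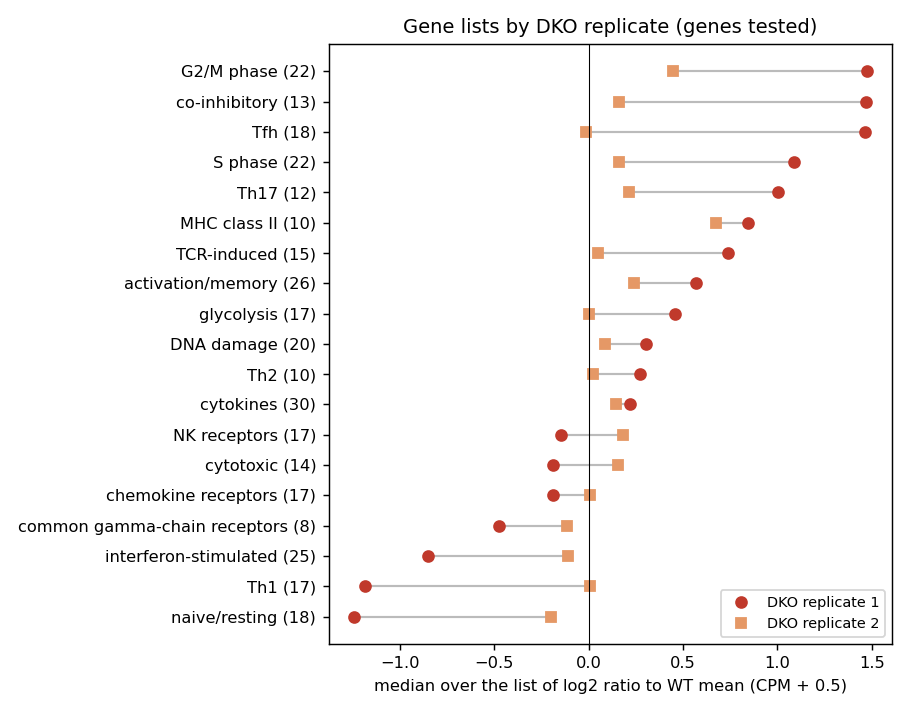
Median log2 ratio to the WT mean over the genes of each list, in DKO replicate 1 (circles) and DKO replicate 2 (squares), with the number of genes tested in parentheses. The replicates lie close together for MHC class II (0.84 and 0.67) and far apart for Tfh (1.46 and -0.02) and Th1 (-1.18 and 0.01).

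Few genes held lower in both DKO libraries. Padi4, which encodes an enzyme that converts arginine to citrulline in histones, was at 10.9 and 9.57 CPM in the WT replicates against 1.0 and 2.15 CPM in the DKO replicates (-2.71 ± 0.45, adjusted p = 0.0241). Ctse, the gene of the aspartic protease cathepsin E, was at 46.5 and 41.7 CPM in the WT replicates against 22.5 and 23.9 CPM in the DKO replicates (-0.93 ± 0.17, adjusted p = 0.0302). Both genes are among the 3 that were called lower and also held. The other 5 called genes had a WT mean under 5 CPM: Plagl1, a zinc finger transcription factor, was at 4.94 and 2.17 against 0.314 and 0.445 CPM, Il13ra1, a chain of the interleukin-13 receptor, at 2.89 and 2.09 against 0.377 and 0.222 CPM, Art3, an ADP-ribosyltransferase family member, at 4.79 and 3.86 against 1.0 and 1.33 CPM, and Cyp1a1, a target of the aryl hydrocarbon receptor, at 2.35 and 2.73 against 0.126 and 0.370 CPM. Lrrc32, the fifth, is given above. With DKO replicate 2 as the lone DKO library, the log2 fold change was -2.25 for Padi4 and -0.89 for Ctse. It was -2.98 for Plagl1, -3.44 for Il13ra1, -1.69 for Art3, -2.75 for Cyp1a1 and -5.63 for Lrrc32.

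The other genes that led the lower side held without being called. Rell1, a relative of the TNF receptor family member RELT, was at 19.1 and 13.4 CPM in the WT replicates against 6.15 and 4.22 CPM in the DKO replicates (adjusted p = 0.0607). Hspa1a, an inducible HSP70 chaperone with a near-identical neighbour, Hspa1b, whose reads can be split, was at 55.3 and 48.2 CPM in the WT replicates against 5.59 and 27.5 CPM in the DKO replicates (adjusted p = 0.140). Wfikkn2, a secreted protein with protease inhibitor domains, was at 24.4 and 25.2 CPM in the WT replicates against 4.46 and 15.1 CPM in the DKO replicates (adjusted p = 0.204). In Hspa1a and Wfikkn2 the lower value was again that of DKO replicate 1.

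Man1c1, a Golgi mannosidase, was at 16.2 and 16.6 against 5.15 and 9.41 CPM, Sdcbp2, a syntenin scaffold protein, at 24.9 and 24.2 against 6.78 and 14.1 CPM, and Dcun1d4, a factor of cullin neddylation, at 22.2 and 21.5 against 11.2 and 13.7 CPM. The microRNA locus Mir715 was at 10.7 and 20.1 against 6.72 and 5.26 CPM and the unnamed locus 2010015L04Rik at 11 and 13.6 against 6.97 and 6.89 CPM. Adjusted p-values of these 5 ranged from 0.0955 to 0.151.

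CD4+Foxp3- cells from mesenteric lymph nodes (mLN) were measured in 3 WT and 3 DKO replicates, in a table of their own. The labels do not say whether these replicates share mice with the spleen and pLN libraries. Of the 16784 genes tested there, 524 were called higher in DKO (3.12%) and 51 lower. Of the genes called higher in spleen and pLNs, 118 could be paired by symbol, and 90 of these (76.3%) were also called higher in mLN, which is 18.3% of the 492 mLN genes found in both tables. Of the genes that held higher, 154 of 229 were called higher in mLN, and 226 had a log2 fold change above 0. Of 27 genes that held lower, 7 were called lower in mLN and 25 had a log2 fold change below 0.

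Pcsk1 ranged from 2.64 to 3.31 CPM in WT and 38.7 to 1627 CPM in DKO in mLN (7.62 ± 1.46, adjusted p = 0.0153). Stom ranged from 3.29 to 3.57 CPM in WT and 25 to 285 CPM in DKO (5.60 ± 0.80, adjusted p = 0.00454), and Flrt2 from 1.3 to 1.62 CPM in WT and 10.2 to 371 CPM in DKO (6.50 ± 1.24, adjusted p = 0.0153). The mLN libraries of the genotypes did not overlap for any of these 3 genes. None of the 4 class II genes was called in mLN. H2-Aa ranged from 4.46 to 10.1 CPM in WT and 6.83 to 8.58 CPM in DKO (0.18 ± 0.33, adjusted p = 0.824) and H2-Eb1 from 3.44 to 5.87 CPM in WT and 4.44 to 6.47 CPM in DKO (0.15 ± 0.30, adjusted p = 0.846). H2-Ab1 ranged from 2.43 to 6.98 CPM in WT and 4.44 to 14.8 CPM in DKO (0.96 ± 0.51, adjusted p = 0.341), the largest fold change of the 4. Cd74 ranged from 18.9 to 30.6 CPM in WT and 30.3 to 63.8 CPM in DKO (0.76 ± 0.37, adjusted p = 0.293), and of the 10 class II genes H2-DMa was called lower and none was called higher. The difference between the tissues was not tested, since the tables were normalized separately. Some lists without calls in spleen and pLNs had calls in mLN, with 7 of 18 Tfh genes, 7 of 13 inhibitory receptor genes and 12 of 22 G2/M genes called higher. Ctse, at 44.6 to 50.3 CPM in WT and 34.8 to 67.3 CPM in DKO, was not called there (0.05 ± 0.19, adjusted p = 0.964).

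Treg cells sorted from spleen and pLNs were compared in the same fit. By the study both cell types came from the same DKO littermates, whereas the fit treats their libraries as independent. Same-numbered deviations of the cell types correlated at 0.336 in DKO and 0.213 in WT. Of the 186 genes called higher in DKO Treg cells (1.14% of genes tested), 48 were also called higher in CD4+Foxp3- cells, 25.8% of the Treg genes and 38.1% of the 126 CD4+Foxp3- genes. 33 genes were called higher in all 3 comparisons. Pcsk1 was at 1.08 and 1.6 CPM in WT mice against 53.2 and 25.5 CPM in DKO mice in Treg cells (4.86 ± 0.39, adjusted p = 1.38e-04), and Sdc2 at 0 and 0 CPM in WT mice against 31.5 and 31.5 CPM in DKO mice (adjusted p = 0.0100). Stom was at 5.23 and 7.52 CPM in WT mice against 77.2 and 31.3 CPM in DKO mice and was not called there (3.09 ± 0.97, adjusted p = 0.106). The class II genes H2-Aa, H2-Ab1, H2-Eb1 and Cd74 were called higher in Treg cells too, with H2-Aa at 4.07 and 4.45 CPM in WT mice against 36.1 and 26.8 CPM in DKO mice (2.88 ± 0.23, adjusted p = 1.38e-04).

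The genotype effect itself was compared between the cell types by an interaction term. At an adjusted p of at most 0.05 it was called for 1 gene of 16357 (0.00611%), and 905 genes had an unadjusted p under 0.05. This gene was Il1rl1, which encodes ST2, the receptor for interleukin-33. Il1rl1 was at 6.61 and 3.94 CPM in the WT replicates against 6.09 and 9.56 CPM in the DKO replicates in CD4+Foxp3- cells, with overlapping genotypes, and at 93.5 and 111 CPM in WT mice against 6.58 and 5.87 CPM in DKO mice in Treg cells. The difference between the log2 fold changes was 4.59 ± 0.38 (adjusted p = 6.88e-04). With the mouse, taken as the genotype and replicate number, as a block, a fit added after the data were seen, the difference kept its size (4.58) but lost its call (adjusted p = 0.422). For the other genes named above, a call in one cell type and not in the other does not show that the effect differed.

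**Figure D5:**
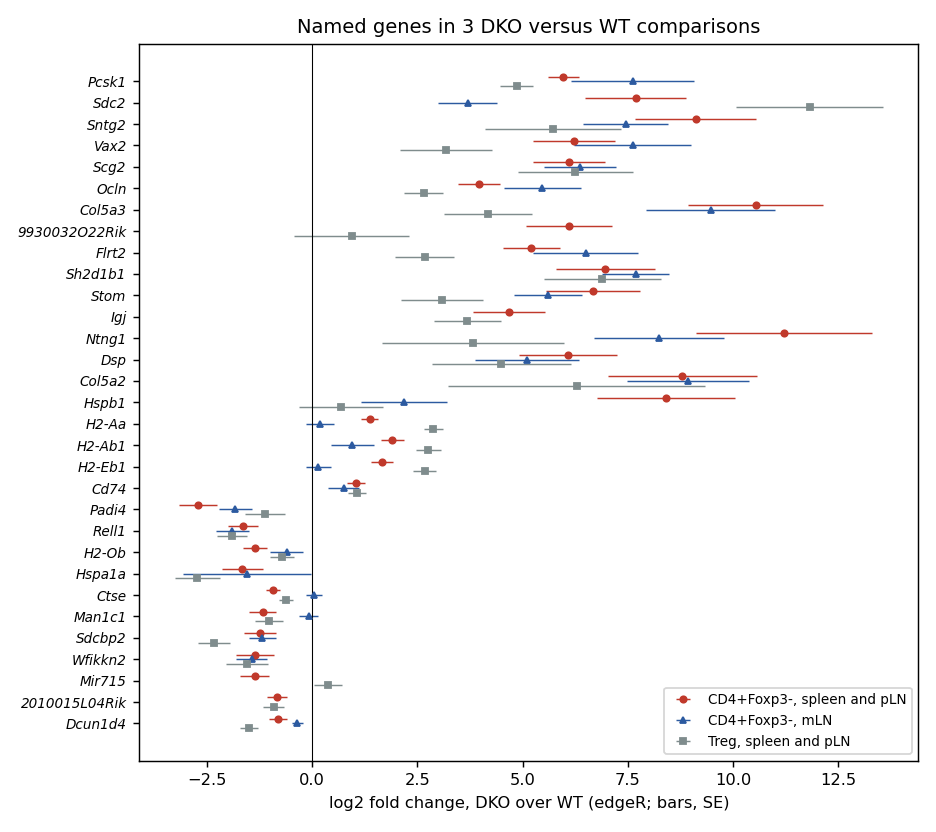
log2 fold change of DKO over WT with its SE (edgeR) for the leading higher genes, the 4 class II genes and the leading lower genes given in the text, in CD4+Foxp3- cells of spleen and pLNs (circles), CD4+Foxp3- cells of mLN (triangles) and Treg cells of spleen and pLNs (squares). Fold changes of genes with almost no WT reads depend on the prior count of the fit, and genes without a triangle could not be paired by symbol.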

How the data were processed

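RNA of sorted CD4+Foxp3- T cells was measured by stranded, single-end mRNA sequencing. Per the study's methods and the submitters' processing notes, the authors mapped reads to mm9 with TopHat2 2.1.1, counted them over RefSeq genes by strand with featureCounts (Subread 1.4.3-p1), and deposited raw gene counts and, as a separate table, TPM values. The TPM values, which the authors computed per gene length and library, served only as an alternative for the genes that hold. No sample-free column was present (0).

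From the deposited counts, genes with a total count of at least 1 were normalized by TMM and fitted with edgeR 4.0.16 (quasi-likelihood test, Benjamini-Hochberg adjustment) in R 4.3.3, over the 4 groups of the spleen and pLN table. A call required an adjusted p up to 0.05 together with a 1.5-fold change. Mesenteric libraries, tabulated separately by the authors, were fitted in the same way on their own. Expression levels are CPM after TMM. Fold changes of each DKO replicate over the WT mean had 0.5 CPM added. A detection limit of 3 counts per library covers counting error only. The scripts were tested on simulated data.

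Leading genes were the 12 per direction with the largest fold change among called genes that hold, and the 12 per direction with the widest gap between the nearest libraries of the genotypes, at a mean of at least 10 CPM, together with the genes of fixed lists. The comparison, the lists and the rule were chosen with earlier results of these data known. Gene symbols that a spreadsheet had turned into dates were not named, and a few genes that the rule or the lists hold are not reported here. DESeq2 1.42.0, other scalings, filters, the replicate number as a block and fits without 1 library each were tried as alternatives. Coordinates are from GENCODE M1 (NCBIM37), and promoter sequences are from RefSeq (GRCm38.p6). No comparison columns of the authors were used.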

Additional observations from a re-analysis of the deposited data

Results flagged for a closer look

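Il1rl1, the gene of the interleukin-33 receptor ST2, drew attention because its DKO effect differed between CD4+Foxp3- and Treg cells by a test of the difference itself. The difference was 4.59 on the log2 scale, from 0.56 in CD4+Foxp3- cells and -4.03 in Treg cells, with an adjusted p of 6.88e-04 in edgeR's interaction test. With the mouse as a block the adjusted p was 0.422.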

How the results depend on the processing

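The number of genes called in CD4+Foxp3- cells of spleen and pLNs, 134, depended strongly on the fit. It was 1 without scaling beyond the total count, 1 with edgeR's expression filter, 376 with DESeq2 on 4 groups, 1 with edgeR on 2 groups and 19 with a robust prior, and it ranged from 1 to 2751 when each replicate was left out. DESeq2's 376 calls held 133 of the 134. The median log2 fold change of all genes moved to 0.13 without scaling. No called gene named in the text changed sign under any of the 12 alternatives. Without DKO replicate 1, the median log2 fold change went from 0.85 to -0.02 for the Tfh list and from -0.47 to 0.00 for the Th1 list. DKO and WT share only a replicate number, with a correlation of 0.221 between same-numbered deviations, and the replicate block gave 98 calls, of which 76 were shared. The 271 genes that hold became 137 at a minimum fold of 2, 4875 without one and 600 at 1 CPM, and ranged from 219 to 2360 with a replicate left out (481 without WT replicate 1). The interaction, called for 1 gene, was called for 2 with DESeq2 size factors, 0 with the expression filter, 11 with DESeq2, 3 with a robust prior and 0 with the mouse as a block, and for 0 to 674 when a library was left out, with 1 call under the plain replicate block. In mLN, 575 calls became 929 with DESeq2 on 4 groups and 2 with edgeR on 2 groups, and ranged from 57 to 1453 with a replicate left out. With 2 replicates per genotype, counts of calls are imprecise at any depth.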
